A study of Mus musculus with 19 samples.

Results

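The 10 genes described here carry out the synthesis, conjugation and uptake of bile acids in liver, and were taken as every non-control probe whose RefSeq accession belongs to Cyp7a1, Cyp7b1, Cyp8b1, Cyp27a1, Hsd3b7, Akr1d1, Baat, Slc27a5, Slc10a1 or Fgfr4. This gave 13 probes of 55681 on the array, and the 10 genes stood among 13812 genes whose signal in liver was above the array's background. Hepatocytes make bile acids from cholesterol by a classic route that opens with Cyp7a1 and an alternative route that opens with Cyp27a1 and continues with Cyp7b1. Hsd3b7 and Akr1d1 then rebuild the steroid ring, Slc27a5 and Baat join the product to taurine or glycine, and Slc10a1 brings bile acids back from the blood. Returning bile acids repress Cyp7a1, in part through the intestinal hormone Fgf15 and its receptor Fgfr4.

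The study profiled livers of 19 mice, all males of transgenic strain 40.6 aged 10 weeks. They had received dibenz[a,h]anthracene (DB[a,h]A), a polycyclic aromatic hydrocarbon, or none of it, and were sampled at 3 days; the vehicle and route are not given in the sources used here. The doses were 0 mg/kg (control, 5 mice), 6.25 mg/kg (5), 12.5 mg/kg (4) and 25 mg/kg (5), and all mice carried the same transgenic background, whose transgene is not given in the sources used here. Each animal had 1 Agilent array, which carried its liver RNA in red (Cy5) beside a common standard, made from 11 cell lines of mouse, in green (Cy3). Values are log2 ratios of liver over reference, so 1 unit is a doubling, and their number of arrays limits the precision.

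The arrays lay on 3 slides, and slide 1 was scanned 7 days after the others. Slide 1 held 1 array at each of the 3 exposed doses and 2 control arrays, slide 2 held 2 arrays of every group, and slide 3 held 2, 1, 2 and 1 arrays at 6.25, 12.5, 25 and 0 mg/kg. From the lowest dose to the highest, liver spots above background averaged 47.0%, 48.3%, 39.8% and 47.8%, with SDs of 7.90, 4.81, 5.01 and 6.42 points over 5, 5, 4 and 5 arrays. All 8 hepatocyte markers were measured, at log2 5.33 (Tat) to 9.75 (Apob) over the reference. All 8 were lower than in controls at 25, 12.5 and 6.25 mg/kg (median -0.25, -0.27 and -0.30). With slide as a block 7 of 8 were lower at each dose (median -0.08, -0.10 and -0.16), and 0 passed the test. Of all probes, 44.9%, 44.0% and 46.7% were higher than in controls at these doses without the block. The array means over the measured cholangiocyte (6 of 8), stellate (8 of 8) and lymphocyte (5 of 7) markers lay below the reference in every group. The groups overlapped in each of these means. In whole liver tissue, fewer cells of a type and less RNA per cell cannot be told apart.

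All 13 probes were above background in liver on 19 of 19 arrays and none was saturated in the liver channel. The reference was dim for part of the genes. It was above background on 5 arrays for Cyp7a1, on 3 for Cyp8b1, on 1 for Baat and on 0 for Akr1d1, and on 19 arrays for the other genes. The ratio of these 4 genes therefore rests on a denominator near background, and the liver channel without the reference was also analysed for every gene.

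No bile acid gene passed the test at any dose. The threshold was an adjusted p under 0.05 in limma, with Benjamini-Hochberg adjustment over all 29415 probes kept, and 0 of 10 genes passed at 25, 12.5 or 6.25 mg/kg against control, between neighbouring doses, in the F test over all doses and in the trend on dose. The share of all probes that passed was 0.0578% at 25 mg/kg (0.809% with slide as a block), 0% at 12.5 mg/kg (0.0068% blocked) and 0% at 6.25 mg/kg (0% blocked). It was 0.0102% in the F test (0.0748% blocked) and 0.0204% in the trend (0.241% blocked). Between doses it was 0% for 25 against 12.5 mg/kg (0% blocked) and 0% for 12.5 against 6.25 mg/kg (0.0034% blocked). At an unadjusted p under 0.05, 2 of the 10 genes were found at 25 mg/kg, Cyp8b1 and Hsd3b7, and 0 at both lower doses, where 7.37%, 4.21% and 5.57% of all probes reached it for the doses in falling order. With slide as a block those counts were 3, 2 and 0 genes, against 14.6%, 9.5% and 11.7% of all probes.

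At 25 mg/kg 8 of the 10 genes had a lower mean than controls and 2 a higher one, with a median change of -0.21, where the median of all probes was -0.02. With slide as a block this became 5 lower and 5 higher (median -0.01), and with each array scaled by its median alone it turned to 2 lower and 8 higher (median 0.12), a scaling under which the median of all probes was itself 0.16. At 12.5 mg/kg 10 of 10 genes were lower (median -0.31; 8 of 10 and -0.15 with the block), and at 6.25 mg/kg 9 of 10 were lower (median -0.15; 4 of 10 and 0.02 with the block, and 2 of 10 with median scaling). The count in each direction thus moved with how slide and scaling were treated.

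**Figure D1:**
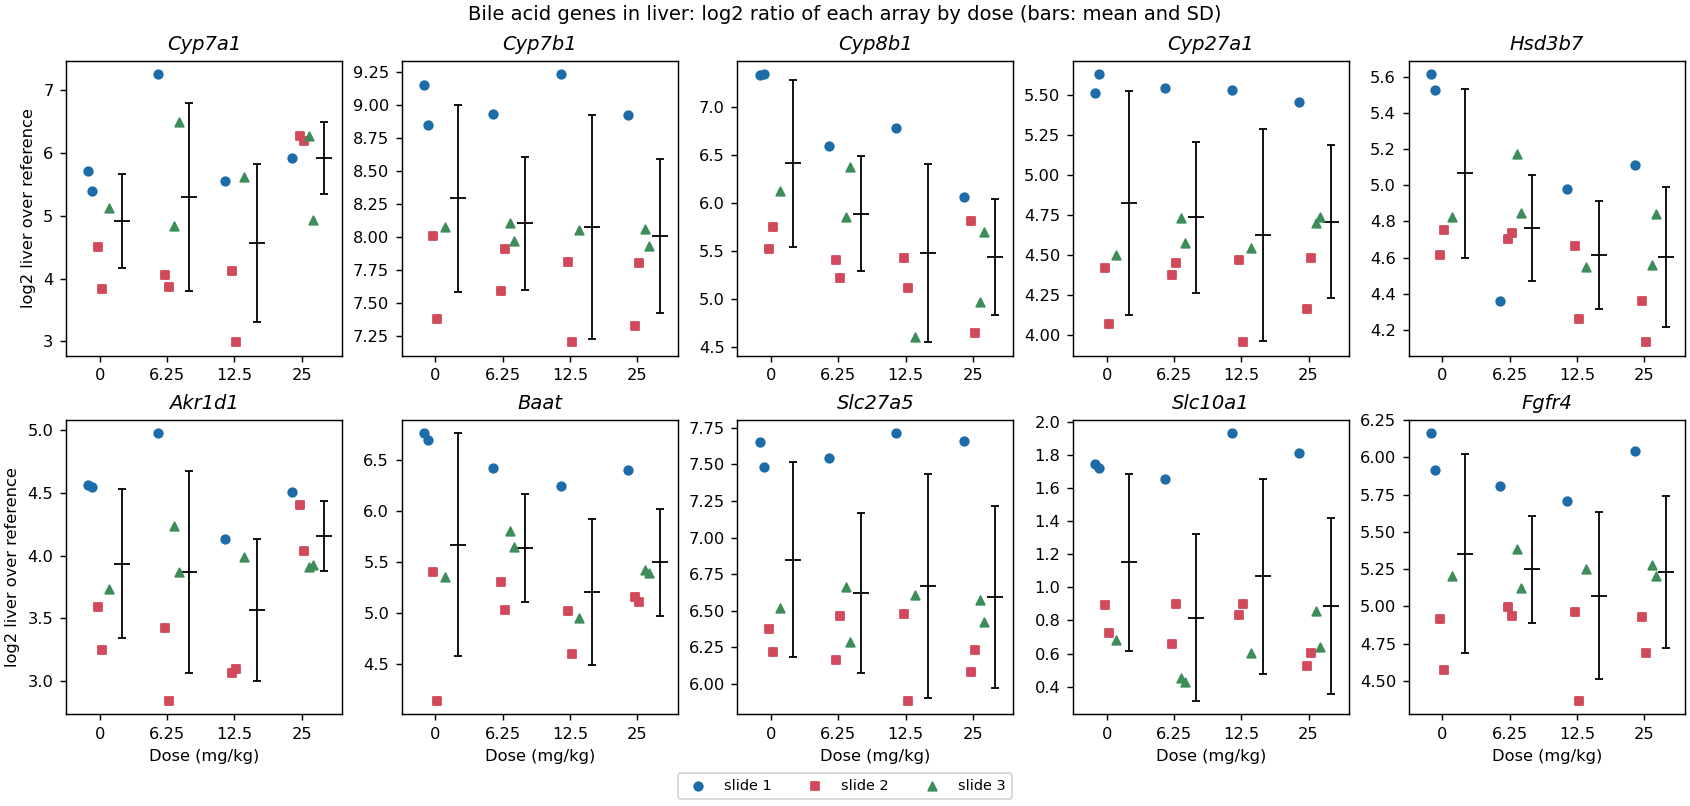
Log2 ratio of liver over reference (vertical axes, scaled per gene and not starting at 0) for each of 19 arrays by dose in mg/kg (horizontal axes), with 1 symbol shape and colour per slide and bars for the mean and SD of each dose. Slide 1 arrays lie highest in most panels, and the doses overlap for every gene.

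Slide took a large share of the variance of most of these genes. The mean of slide 1 was the highest of the 3 slides for all 10 genes, and slide accounted for 35.5% of the variance across arrays for Cyp7a1, 39.1% for Hsd3b7 and 59.5% (Akr1d1) to 93.6% (Slc27a5) for the other genes. Dose accounted for 1.80% (Cyp27a1) to 26.0% (Cyp8b1). Control was the only group with 2 of its arrays on slide 1.

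Cyp7a1, the rate-limiting enzyme of the classic route, was the most variable member. Its log2 ratio was 5.13, 4.51, 3.83, 5.71 and 5.39 in controls, and 4.84, 6.49, 4.07, 3.87 and 7.25 at 6.25 mg/kg. The 12.5 mg/kg arrays had 5.63, 4.12, 2.99 and 5.55, and those at 25 mg/kg 6.27, 4.93, 6.27, 6.19 and 5.92. At 25 mg/kg 4 of 5 arrays lay above every control and the fifth lay within the control range, so the groups overlapped.

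The mean of Cyp7a1 was 5.91 ± 0.57 at 25 mg/kg and 4.92 ± 0.75 in controls (SD, n = 5 each), a log2 difference of 1.0 ± 0.61 (SE; 95% interval -0.28 to 2.28) that did not pass in limma (adjusted p = 0.791). With slide as a block it was 1.13 (95% interval 0.13 to 2.12; adjusted p = 0.274 in limma). Within slides 1, 2 and 3 the difference was 0.36, 2.06 and 0.47, so slide 2 held the widest gap. The liver channel alone gave 0.87 (adjusted p = 0.524 in limma), and the scanner software's processed signals 1.34 (adjusted p = 0.631 in limma).

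At the lower doses Cyp7a1 had no settled direction. The difference from controls was 0.39 ± 0.61 at 6.25 mg/kg (SE; adjusted p = 0.957 in limma) and -0.10 without the fifth array of that dose, which had the highest Cyp7a1 ratio of the series. At 12.5 mg/kg it was -0.34 ± 0.65 (adjusted p = 0.999 in limma), and 0.08 in the liver channel alone (0.18 with slide as a block). On the fourth 12.5 mg/kg array the Cyp7a1 reference signal was 197 units, the highest of the series, beside 3427 units in liver. The ratio of that array also enters the difference between 25 and 12.5 mg/kg. Between 25 and 12.5 mg/kg the difference was 1.34 ± 0.65 (adjusted p = 0.999 in limma; 1.28 and adjusted p = 0.325 with the block), of which slide 2 gave 2.67 and slides 1 and 3 gave 0.37 and -0.03.

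With dose and slide fitted, Cyp7a1 still varied widely. Its residual SD with slide as a block was 0.86 on the log2 scale, ranked 66 from the top of 13812 genes, whose median was 0.16. Of all genes, 0.471% had a larger one. This residual SD also holds the disagreement between slides in the dose difference (0.36, 2.06 and 0.47 at 25 mg/kg). In the liver channel alone the residual SD of Cyp7a1 was 0.72, and the next largest among the members was 0.48, for Cyp8b1. The range over all arrays ran from 2.99 to 7.25.

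Cyp8b1 had the smallest p of the members at 25 mg/kg and in the F test. It is the sterol hydroxylase that directs the classic route towards cholic acid, and its promoter is shown because its ratio was lower at every dose (though not with the processed signals) and because it held the HNF4 alpha motif. The RefSeq promoter of mouse assembly GRCm38.p6 lies at chr9:121916256-121916555 on the minus strand, and capitals mark the HNF4 alpha motif:

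Cyp8b1: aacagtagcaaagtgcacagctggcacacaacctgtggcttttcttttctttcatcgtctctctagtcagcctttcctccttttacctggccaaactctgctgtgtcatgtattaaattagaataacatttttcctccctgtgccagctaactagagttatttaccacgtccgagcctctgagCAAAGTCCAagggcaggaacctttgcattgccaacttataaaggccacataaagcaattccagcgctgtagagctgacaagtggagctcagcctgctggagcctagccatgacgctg

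Cyp8b1 had log2 ratios of 6.13, 5.52, 5.75, 7.33 and 7.34 in controls and 5.86, 6.37, 5.41, 5.22 and 6.60 at 6.25 mg/kg. They were 4.60, 5.42, 5.11 and 6.78 at 12.5 mg/kg and 4.97, 5.70, 5.81, 4.64 and 6.07 at 25 mg/kg. Both controls on slide 1 stood above every other array, and the remaining controls overlapped with all 3 exposed groups.

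Cyp8b1 averaged 5.44 ± 0.60 at 25 mg/kg and 6.41 ± 0.87 in controls (SD, n = 5 each), a log2 difference of -0.98 ± 0.43 (SE; 95% interval -1.88 to -0.07; adjusted p = 0.621 in limma). With slide as a block it was -0.76 (95% interval -1.28 to -0.23; adjusted p = 0.158 in limma), and slides 1, 2 and 3 taken alone gave -1.27, -0.41 and -0.79. The 12.5 mg/kg difference was -0.94 ± 0.46 (SE; adjusted p = 0.999 in limma; -0.74 and adjusted p = 0.386 with the block). At 6.25 mg/kg it was -0.52 ± 0.43 (SE; adjusted p = 0.929 in limma). The trend on dose was -0.037 per mg/kg (adjusted p = 0.778 in limma; adjusted p = 0.228 with the block).

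With slide means taken off, the Cyp8b1 values at 12.5 mg/kg lay wholly below those of controls, as did 2.4% of all probes with a value on every array. At 25 mg/kg they overlapped with controls. The direction differed between signals: the liver channel alone gave -0.97 at 25 mg/kg (adjusted p = 0.126 in limma; -0.92 and adjusted p = 0.112 with the block), whereas the processed signals gave differences of 0.39 (25 mg/kg), 0.05 (12.5 mg/kg) and 0.62 (6.25 mg/kg). Adding the slide block to the processed signals gave 0.43, 0.18 and 0.66 for the same doses. The reference signal of this probe was 30.0 to 69.0 units of median pixel brightness, against 760 to 6695 units in liver.

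**Figure D2:**
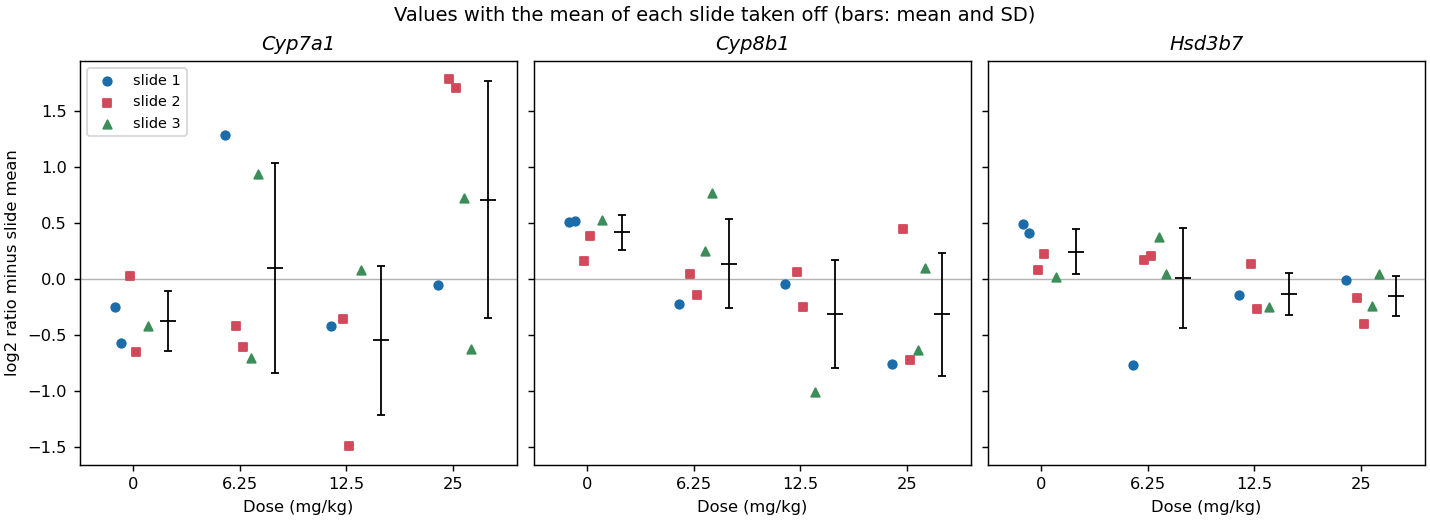
Log2 ratio minus the mean of its slide (vertical axis) by dose in mg/kg (horizontal axis) for Cyp7a1, Cyp8b1 and Hsd3b7, with 1 symbol per array, shapes for slides and bars for the mean and SD. The 12.5 mg/kg arrays of Cyp8b1 lie below the controls, and the Cyp7a1 arrays at 25 mg/kg spread from -0.62 to 1.78.

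Of the ring-modifying enzymes, Hsd3b7, the dehydrogenase that follows the first hydroxylation, had ratios of 4.82, 4.61, 4.75, 5.61 and 5.53 in controls and 5.17, 4.85, 4.70, 4.74 and 4.36 at 6.25 mg/kg. Ratios at 12.5 mg/kg were 4.55, 4.67, 4.26 and 4.98, and at 25 mg/kg 4.56, 4.84, 4.36, 4.13 and 5.11. The doses overlapped, with both slide 1 controls on top.

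The difference of Hsd3b7 was -0.46 ± 0.22 at 25 mg/kg (SE; 95% interval -0.93 to -0.0024; adjusted p = 0.674 in limma) and -0.42 with slide as a block (adjusted p = 0.274 in limma). Within the slides it was negative each time (-0.46, -0.44 and -0.12). The 12.5 mg/kg difference was -0.45 ± 0.23, and that of 6.25 mg/kg -0.30 ± 0.22 (SE). At 6.25 mg/kg the slides disagreed, with -1.21, 0.04 and 0.19, and slide 1 had a single array of that dose.

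Akr1d1, the reductase that gives bile acids their bent ring, is shown with its listed promoter since its ratio varied with that of Cyp7a1. Part of that window lies inside the annotated gene, which begins at chr6:37529978. The sequence lies at chr6:37529923-37530222 on the plus strand of GRCm38.p6, and capitals mark the nuclear receptor half-site motif:

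Akr1d1: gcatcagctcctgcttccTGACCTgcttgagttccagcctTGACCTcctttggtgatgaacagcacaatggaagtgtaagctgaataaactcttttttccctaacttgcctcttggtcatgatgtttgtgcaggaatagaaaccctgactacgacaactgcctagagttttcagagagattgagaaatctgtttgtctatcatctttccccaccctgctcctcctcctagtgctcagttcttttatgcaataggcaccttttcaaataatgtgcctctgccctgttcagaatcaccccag

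Akr1d1 had ratios of 3.74, 3.59, 3.25, 4.56 and 4.55 in controls and 4.24, 3.87, 3.42, 2.84 and 4.98 at 6.25 mg/kg. They were 3.99, 3.06, 3.1 and 4.13 at 12.5 mg/kg and 3.91, 3.93, 4.40, 4.04 and 4.51 at 25 mg/kg. The 25 mg/kg arrays spanned the narrowest range and lay inside that of controls.

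The difference of Akr1d1 from controls was 0.22 ± 0.34 at 25 mg/kg, -0.37 ± 0.36 at 12.5 mg/kg and -0.07 ± 0.34 at 6.25 mg/kg (SE). The last turned to 0.06 with slide as a block. The liver channel alone gave 0.20, -0.11 and -0.06 for the same doses. The highest Akr1d1 reference signal, 53 units, was on the fourth 12.5 mg/kg array. Between 25 and 12.5 mg/kg the ratio differed by 0.59 ± 0.36 (SE), and by 0.58 with the block (adjusted p = 0.314 in limma). Slide 2 gave 1.14 and slide 3 gave -0.07.

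In the alternative route, Cyp27a1, which oxidises the cholesterol side chain in mitochondria, and Cyp7b1, the oxysterol hydroxylase, had differences smaller than their SEs at 25 mg/kg. Cyp27a1 differed by -0.12 ± 0.34 at 25 mg/kg (SE; 0.07 with the block) and Cyp7b1 by -0.28 ± 0.38 (-0.09 with the block). Their 95% intervals with the block ran from -0.15 to 0.28 for Cyp27a1 and from -0.38 to 0.21 for Cyp7b1. Cyp27a1 was printed as 10 spots on each array, whose SD within an array was 0.05 to 0.17. The SD between control animals was 0.70, and 0.15 with slide means taken off. Each control value is a mean of 6 to 10 spots, so these SDs are not directly comparable with those of single spots.

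Conjugation was covered by Slc27a5, the ligase that activates bile acids with coenzyme A, and Baat, the amino acid transferase. Baat differed by -0.17 ± 0.43 (SE) at 25 mg/kg, by 0.05 with slide as a block and by 0.55 with the processed signals. Its reference signal was near background. The liver channel alone gave -0.29, -0.36 and -0.19 for Baat at 25, 12.5 and 6.25 mg/kg (limma adjusted p = 0.327, 0.615 and 0.655). On the third control array the Baat reference signal was 113 units, the highest of the series, and the ratio was 4.14, the lowest of the controls. Slc27a5 differed by -0.25 ± 0.37 (SE; -0.04 with the block) on A_51_P289742, which stood for the gene, and by -0.13 ± 0.51 on A_55_P2073557 (0.15 with the block). The first was brighter over both channels, with a median reference signal of 1127 units against 289, while the second was brighter in liver on 19 of 19 arrays (median 112622 units, against 53765 for the first). The slide-centred ratios of the 2 Slc27a5 probes correlated at 0.70 over 19 arrays, and those of the 2 Fgfr4 probes at 0.77. Fgfr4 differed by -0.13 ± 0.31 at 25 mg/kg (SE; 0.01 with the block) on its brightest probe and by -0.13 ± 0.35 on the other (0.04 with the block).

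**Figure D3:**
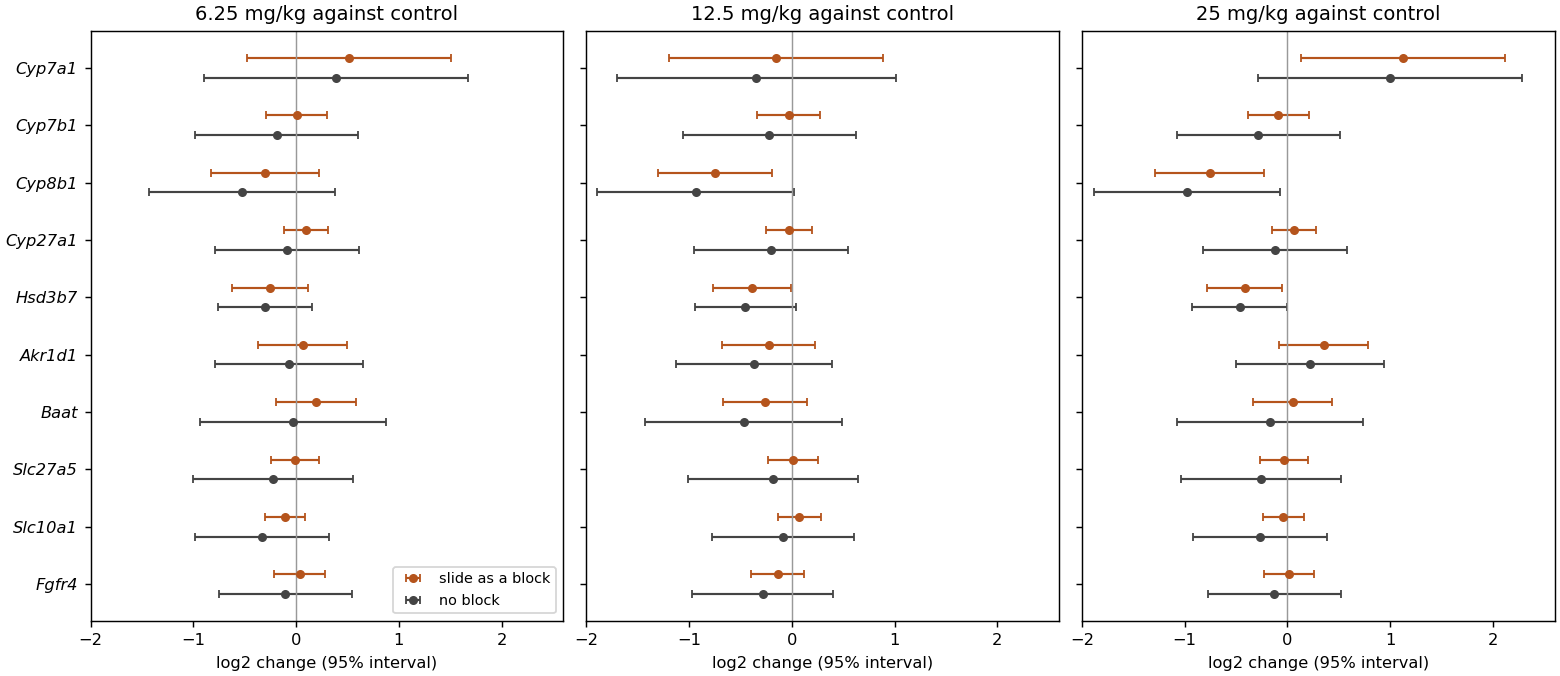
Log2 change of each gene against control (horizontal axes, with 95% intervals) at 6.25, 12.5 and 25 mg/kg, with slide as a block above and without it below for each gene. Blocked intervals are narrower for every gene, and at 25 mg/kg those of Cyp7a1, Cyp8b1 and Hsd3b7 lie wholly on 1 side of 0 without passing after adjustment over all probes.

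Slc10a1, the sodium-dependent carrier that takes bile acids into hepatocytes, was measured by 2 probes that did not track each other. The brighter, A_55_P1954987, had a median signal of 238502 in liver and 286394 in the reference, and its log2 ratio ran from 0.43 to 1.93. That ratio is after loess within arrays, and the raw liver signal was below the reference on part of the arrays. On the second 12.5 mg/kg array the signals were 132760 in liver and 362587 in the reference, where the ratio was 0.84. The other, A_52_P69109, had 6458 in liver and 126.5 in the reference. Their slide-centred ratios correlated at -0.08 over 19 arrays, and no comparison of level between the probes is made.

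At 25 mg/kg the brighter Slc10a1 probe differed from controls by -0.27 ± 0.31 (SE; adjusted p = 0.891 in limma; -0.04 with the block) and the other by 0.03 ± 0.39 (adjusted p = 0.991 in limma; 0.24 and adjusted p = 0.446 with the block). The brighter probe stood for the gene in the counts above, and a ratio far above the reference was seen on the other probe alone.

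**Figure D4:**
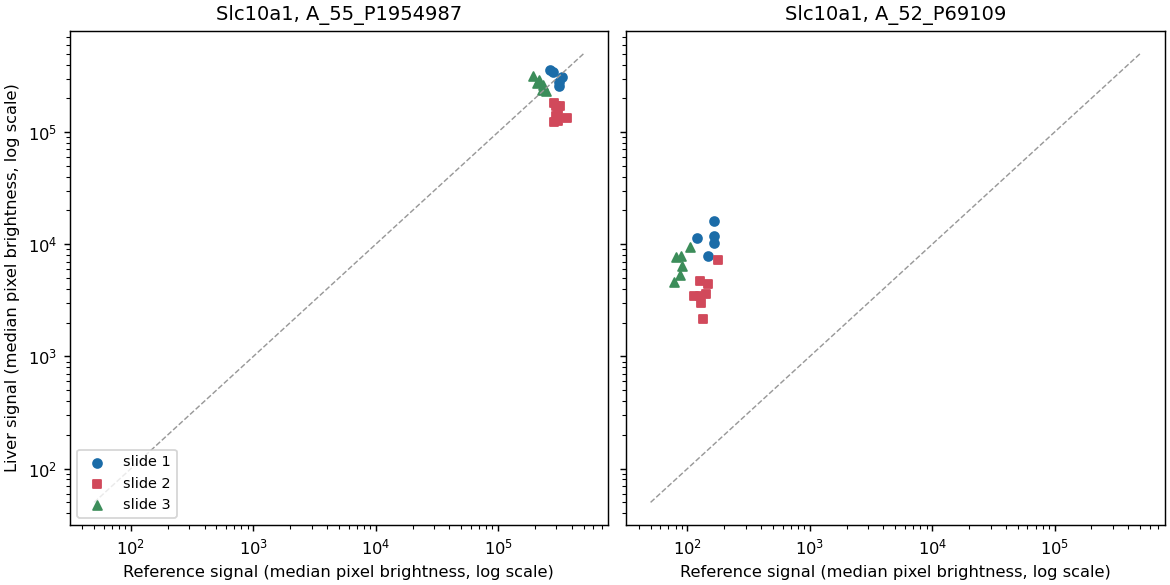
Liver signal (vertical axis) against reference signal (horizontal axis) of the 2 Slc10a1 probes on 19 arrays, both as median pixel brightness on log axes, with shapes for slides and a dashed line of equality. A_55_P1954987 lies near the line at high signal in both channels, and A_52_P69109 lies far above it.

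The members did not vary together as a set. Over 45 pairs, with slide means taken off, the median Pearson r over 19 arrays was 0.17, the range was -0.70 to 0.82, and 30 pairs were positive. Differences between doses were not taken off, so they enter these correlations. Cyp7b1 and Slc27a5 had r = 0.82 and rho = 0.81 (permutation within slides, p = 9e-05, adjusted over 45 pairs 0.00405), and r = 0.74 without the 2 arrays farthest from the median. In the liver channel alone the same pair had r = -0.31, and both ratios share the reference of their array.

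Cyp7a1 and Akr1d1 had r = 0.75 and rho = 0.54 (permutation p = 0.00292, adjusted 0.0438 for r, and 0.188 for rho). Without the 2 farthest arrays r was 0.51, and in the liver channel alone it was 0.54. The 2 highest arrays of both genes were those at 25 mg/kg on slide 2. With slide means taken off they had 1.78 and 1.71 for Cyp7a1, and 0.94 and 0.57 for Akr1d1. Akr1d1 and Slc10a1 (brighter probe) ran in opposite directions, with r = -0.70 and rho = -0.61 (permutation p = 0.00062, adjusted 0.0139 for r, and 0.101 for rho). Without the 2 farthest arrays r was -0.56, and in the liver channel alone it was -0.27. The pair was computed for the brighter Slc10a1 probe only. The other Slc10a1 probe did not follow that probe (r = -0.08), so the opposition was not shown for the gene. Cyp8b1 and Hsd3b7 had r = 0.57 and rho = 0.62 (permutation p = 0.0151, adjusted 0.0962 for r, and 0.101 for rho). Without the 2 farthest arrays r was 0.61, and in the liver channel alone it was 0.65. Cyp7a1 and Hsd3b7 had r = -0.55 and rho = -0.49 (permutation p = 0.0095, adjusted 0.0799 for r, and 0.188 for rho). Without the 2 farthest arrays r was -0.49, and in the liver channel alone it was -0.67. Neither of these pairs passed after adjustment. Other pairs of larger r that did not pass included Cyp7b1 with Cyp27a1 (r = 0.71, and 0.06 in the liver channel alone) and Baat with Fgfr4 (r = 0.64, and 0.32). Both had an adjusted permutation p of 0.0799 for r.

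**Figure D5:**
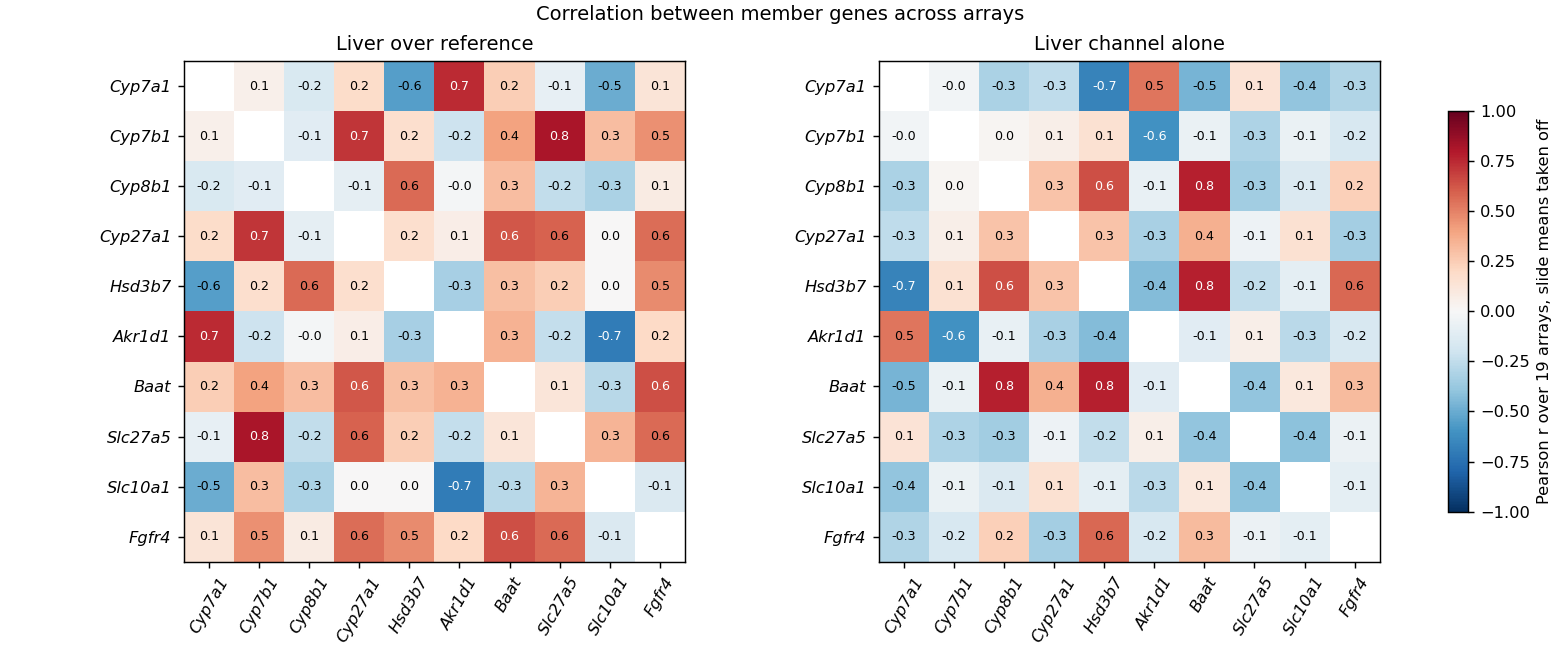
Pearson r between each pair of the 10 genes over 19 arrays with slide means taken off, for the ratio of liver over reference (left) and the liver channel alone (right), on a colour scale from -1 to 1. Cyp7b1 and Slc27a5 are at 0.82 on the left and -0.31 on the right, while Cyp7a1 and Akr1d1 are positive on both sides.

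The genes whose slide-centred ratio was most like that of Cyp7a1, among 13545 other genes with a value on all 19 arrays, were Acmsd (r = 0.90), Mapk14 (0.90), Gpt2 (0.89), Ddo (0.89) and Timm8a1 (0.88). Those most opposed were Ro60 (-0.86), Bgn (-0.85) and Hoxb2 (-0.85). For Cyp8b1 they were Cars2 (0.87), Spsb3 (0.84), Poln (0.82), Mreg (0.82) and Caprin1 (0.82), and on the opposed side Il1r1 (-0.85), Psmb10 (-0.80) and Rbm47 (-0.80). These are the extremes of many correlations that share arrays and still hold dose differences, and they are given as a description.

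Promoters were found in the RefSeq table for Cyp27a1, Akr1d1, Hsd3b7, Cyp8b1, Slc10a1 (2 entries) and Fgfr4, and Cyp7a1, Cyp7b1, Baat and Slc27a5 were not matched. On both strands the HNF4 alpha motif CAAAGTCCA was present 67 bases before the annotated start of Cyp8b1, and in 0.475% of 32841 promoters. The half-site AGGTCA, which also lies inside the LRH-1 and FXR motifs, was present in Akr1d1, 232 and 210 bases before the start, and in 1 Slc10a1 entry, 87 bases before it, and in 16.3% of promoters. These distances are to the start of the promoter entry. The Akr1d1 gene is annotated from chr6:37529978, inside its window. That Slc10a1 entry (chr12:80968030-80968329, minus strand) lies within the gene, which is annotated up to chr12:80968705. The LRH-1 motif CAAGGTCA (1.56% of promoters), the D-box TTANGTAA (2.32%), the E-box CACGTG (7.15%), the FXR inverted repeat and the HNF1 motif (0.00913% each) were not matched in these windows.

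The rest of the bile acid pathway gave no call either. Of 16 other synthesis enzymes 15 were measured, of 18 transporters of bile acids and bile lipids 16, and of 17 sensors and feedback regulators 17, and 0 passed at any dose with or without the block. Ch25h, Slc51a and Slc10a6 were above background on 0 arrays. At 25 mg/kg 1 enzyme, 1 transporter and 1 regulator had an unadjusted p under 0.05 in limma (7.37% of all probes). With the block the counts were 4, 4 and 7 (14.6% of all probes). At 12.5 mg/kg they were 4, 0 and 0 (4.21% of all probes), and 7, 1 and 1 blocked (9.5%). At 6.25 mg/kg they were 1, 0 and 1 (5.57% of all probes), and 2, 3 and 5 blocked (11.7%). At 25 mg/kg the median change of the enzymes was -0.16 (11 lower, 4 higher), that of the transporters -0.01 (8 lower, 8 higher) and that of the regulators 0.12 (6 lower, 11 higher). With slide as a block these were -0.13 (10 lower, 5 higher), 0.05 (5 lower, 11 higher) and 0.20 (4 lower, 13 higher). At 12.5 mg/kg the medians were -0.19 (12 lower, 3 higher), -0.20 (13 lower, 3 higher) and -0.06 (9 lower, 8 higher). The block moved them to -0.13, -0.09 and 0.08.

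Among the enzymes at 25 mg/kg, the peroxisomal oxidase Acox2 was -0.31 ± 0.14 and the dehydrogenase Hsd17b10 -0.18 ± 0.10, while the epoxide hydrolase Ephx1 was 0.39 ± 0.19 and Akr1c14 0.32 ± 0.17 (SE; limma adjusted p = 0.651, 0.747, 0.681 and 0.719). Ephx1 was positive within all 3 slides, at 0.35, 0.45 and 0.65. Among the transporters, the sterol half-transporter Abcg5 was 0.66 ± 0.38 (0.83 and adjusted p = 0.0657 with the block), and the ileal bile acid carrier Slc10a2 0.68 ± 0.49 (adjusted p = 0.143 with the block). Abcg2 was -0.32 ± 0.15 and Slc10a5 -0.15 ± 0.15.

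Of the regulators, the forkhead factor Foxa2 came closest to the threshold, at 0.65 ± 0.26 (SE; adjusted p = 0.535 in limma) and 0.80 with slide as a block (adjusted p = 0.0525 in limma), with 0.61, 0.86 and 0.70 within slides 1, 2 and 3. With slide means taken off, its 25 mg/kg arrays lay wholly above controls, as did 2.26% of all probes with a value on every array. Onecut1, a liver transcription factor, was 1.30 ± 0.65 (adjusted p = 0.143 with the block in limma), the bile acid receptor Nr1h4 0.40 ± 0.21 and Klb, the partner of Fgfr4 in binding Fgf15, 0.48 ± 0.27 (SE; limma adjusted p = 0.718 and 0.756).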

How the data were processed

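Liver RNA (red, Cy5) and a common reference (green, Cy3) were measured on 19 Agilent arrays. The deposited scanner files hold each spot's intensity as median pixel brightness, and the processed intensity of the scanner software (Feature Extraction, version 10.7.3.1, per the header of each file). A deposited value table gives log2 ratios; its making is not given in the sources used here, and its columns correlated at 0.993 to 0.996 with loess ratios computed without background subtraction. It was used only as an alternative.

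Median signals were corrected with normexp (offset 50) and loess within arrays (limma 3.58.1, R 4.3.3), with control spots given no weight, and spots of one probe averaged. The 29415 probes above background in liver on at least 4 arrays were kept. RefSeq accessions named 79.9% of 33064 probes that carried one (assembly GRCm38.p6), and the kept probe with the highest mean log2 brightness over both channels stood for a gene. All groups entered 1 limma fit, adjusted by Benjamini-Hochberg, two-sided, and the script was tested on simulated data. Slide as a fixed block was an alternative.

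Members and gene lists were chosen with earlier results of these data known. The text names all members and their probes, of 3 other bile acid lists each gene that passed and the 4 of smallest p at 25 mg/kg, and the 5 most positively and 3 most negatively correlated genes with Cyp7a1 and with the member of smallest F test p. Other alternatives were the processed signals, median normalization, no background subtraction, the deposited table, filters on dim probes, the mean of a gene's probes, only the groups compared, each slide alone and each array left out. The liver channel alone (with and without the block) and the processed signals with the block were chosen after seeing the data.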

Additional observations from a re-analysis of the deposited data

Results flagged for a closer look

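In 52 groups of 4 or 5 arrays (13 probes at 4 doses), 3 had an array whose gap to its nearest neighbour exceeded Dixon's 95% critical value. For independent values from 1 normal distribution, chance gives about 1 in 20 groups. These groups mix slides and share arrays, so that rate does not hold for them. Cyp7a1 at 25 mg/kg had its lowest array at 4.93 (slide 3), with the next at 5.92 and the highest at 6.27. Without it the difference from controls was 1.25. Baat at 25 mg/kg had its highest array at 6.40 (slide 1), with the next at 5.42. The brighter Slc10a1 probe at 25 mg/kg had its highest array at 1.81 (slide 1), with the next at 0.86. The Baat and Slc10a1 values come from the same array, the only one of its dose on slide 1, and slide 1 had the highest mean for both genes.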

How the results depend on the processing

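The count of member genes that passed was 0 in each of the 7 comparisons, and 0 under the 31 alternatives that carried a test (30 for the F test), where the lowest adjusted p of a member's dose change was 0.112 (limma). Single slides gave values with no test. Counts of all probes moved more: at 25 mg/kg they ran from 0 to 262 across alternatives, against 17 as first given and 238 with slide as a block. Of 930 member changes recomputed with a test, 834 kept their sign and 96 turned it, 30 of them on leaving out an array and 66 otherwise. No turned value passed the test, and the cause was not tested. Within single slides the sign was opposite to that over all arrays for 34 of 90 values (8, 12 and 14 of 30 on slides 1, 2 and 3), among them Baat at 25 mg/kg on slide 2 (0.36), Akr1d1 at 12.5 mg/kg on slide 3 (0.25) and Hsd3b7 at 6.25 mg/kg on slides 2 and 3 (0.04 and 0.19). No paired analysis was possible because the labels give no replicate numbers shared across groups.

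Among the alternatives with a test, apart from leaving out an array, signs turned to the following log2 changes. Slide as a block gave Cyp27a1 0.068, Baat 0.051 and Fgfr4 0.014 at 25 mg/kg; Slc27a5 0.012 and Slc10a1 0.074 at 12.5 mg/kg; Cyp7b1 0.0054, Cyp27a1 0.10, Akr1d1 0.065, Baat 0.19 and Fgfr4 0.034 at 6.25 mg/kg. No background subtraction gave Baat 0.015 at 6.25 mg/kg. The processed signals gave Cyp8b1 0.39, Baat 0.55 and Slc10a1 0.14 at 25 mg/kg; Cyp8b1 0.048, Baat 0.037 and Slc10a1 0.12 at 12.5 mg/kg; Cyp8b1 0.62, Baat 0.39 and Slc10a1 0.14 at 6.25 mg/kg. Median normalization gave Cyp7b1 0.058, Cyp27a1 0.17, Baat 0.064, Slc27a5 0.12, Slc10a1 0.22 and Fgfr4 0.12 at 25 mg/kg; Cyp7b1 0.043, Cyp27a1 0.068, Hsd3b7 0.0068, Baat 0.10, Slc27a5 0.044, Slc10a1 0.10 and Fgfr4 0.027 at 6.25 mg/kg. The deposited table gave Slc10a1 0.039 at 25 mg/kg; Baat 0.011 at 6.25 mg/kg. The liver channel alone gave Slc27a5 0.033 and Slc10a1 0.018 at 25 mg/kg; Cyp7a1 0.081 and Slc10a1 0.063 at 12.5 mg/kg; Slc27a5 0.046, Slc10a1 0.027 and Fgfr4 0.070 at 6.25 mg/kg. The liver channel with slide as a block gave Slc27a5 0.087 and Slc10a1 0.014 at 25 mg/kg; Cyp7a1 0.18, Slc27a5 0.030 and Slc10a1 0.052 at 12.5 mg/kg; Slc27a5 0.10, Slc10a1 0.023 and Fgfr4 0.027 at 6.25 mg/kg. The processed signals with slide as a block gave Cyp8b1 0.43, Cyp27a1 0.054, Baat 0.70, Slc10a1 0.18 and Fgfr4 0.070 at 25 mg/kg; Cyp7b1 0.043, Cyp8b1 0.18, Baat 0.25, Slc27a5 0.050 and Slc10a1 0.19 at 12.5 mg/kg; Cyp7b1 0.033, Cyp8b1 0.66, Cyp27a1 0.052, Baat 0.54, Slc27a5 0.013 and Slc10a1 0.18 at 6.25 mg/kg.

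Leaving out each array in turn turned the sign of some changes, whose ranges follow. At 6.25 mg/kg they were Akr1d1 (-0.34 to 0.19), Baat (-0.41 to 0.24), Cyp27a1 (-0.29 to 0.11), Cyp7a1 (-0.10 to 0.75), Cyp7b1 (-0.42 to 0.025) and Fgfr4 (-0.30 to 0.10). At 25 mg/kg they were Baat (-0.56 to 0.10), Cyp27a1 (-0.31 to 0.083) and Fgfr4 (-0.33 to 0.076). At 12.5 mg/kg they were Cyp27a1 (-0.50 to 0.022), Cyp7a1 (-0.70 to 0.18), Cyp7b1 (-0.60 to 0.073), Slc10a1 (-0.37 to 0.071) and Slc27a5 (-0.53 to 0.083). The changes of Cyp8b1 and Hsd3b7 kept their sign at all 3 doses when any array was left out, and Cyp7a1 and Akr1d1 kept theirs at 25 mg/kg. Blocked SEs were a median of 0.16 at 25 mg/kg, against 0.36 without the block, and the widest 95% half-interval without it was 1.28 on the log2 scale (Cyp7a1).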
